A study of Homo sapiens with 6 samples.

Results

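This account covers 41 genes whose products remove, protect or recognise mRNA, called here mRNA decay and stability factors, in OE-19 cells, a line of adenocarcinoma of the esophagogastric junction (AEG). The genes were listed by name, in 6 groups by their known roles, and the rule for membership uses no measured value. The list was made with earlier results of these data known, so the shares of members called are no test of the set. They match 42 rows among 60480 gene identifiers, because MATR3 has 2 rows, and all 42 rows were among the 19778 genes with enough counts to be tested. RNA-seq of polyA RNA was compared between 3 libraries of cells that carry a control knockdown (shControl, called control) and 3 libraries of cells that carry an shRNA against IGF2BP3 (IGF2BP3 KD). Both groups are the same line. The control libraries are also named Puro, read here as a name only. Beyond these names the labels give no treatment. The labels say neither whether the 3 libraries of a group come from separate cultures nor whether the IGF2BP3 KD libraries share 1 hairpin. The p-values therefore measure the spread between these libraries, which may be technical.

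Libraries held 53424071 to 69989087 counts, and mitochondrial genes took 8.67% to 9.06% of them. IGF2BP3 (ENSG00000136231) had 7416, 7363 and 6532 counts in the control libraries and 777, 792 and 794 in the IGF2BP3 KD libraries. Its log2 fold change was -3.03 (SE 0.06, adjusted p = 3.1e-10, edgeR), so the labels of all 6 libraries hold for the targeted gene. The epithelial markers KRT8, KRT18, KRT19, CDH1, EPCAM and CLDN4 lay between 337 and 2625 CPM (counts scaled to library size) on average in control cells, while KRT20 was at 0.187 CPM. Of 8 markers of blood, fibroblast and endothelial cells, CD3E and COL1A2 had no count in any library. CD68 and COL1A1, at 35.8 and 21.7 CPM in control cells, were called higher in IGF2BP3 KD cells, at 51.9 and 30.8 CPM. CD68 shares 1765 exon bases with genes on its strand, so its counts are uncertain. PDGFRB, at 0.469 CPM in control and 0.384 in IGF2BP3 KD cells, was not called. PTPRC, PECAM1 and VWF had too few counts to be tested. The summed level of the 8 markers, nearly all of it CD68 and COL1A1, was 54.6 to 61.3 CPM in control and 82.7 to 83.6 in IGF2BP3 KD libraries. Its part in the results below was not tested.

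Decay of a typical mRNA in the cytoplasm starts at its poly(A) tail, which the PAN2-PAN3 and CCR4-NOT deadenylases shorten. The cap is then removed by DCP2 with its cofactors, and the body is degraded from the 5′ end by XRN1 or from the 3′ end by the exosome. Proteins bound to the 3′ UTR speed or slow these steps. IGF2BP3 belongs to a family of RNA-binding proteins that recognise N6-methyladenosine and are known to stabilise bound mRNAs together with partners such as ELAVL1, MATR3 and PABPC1. The comparison asks how the transcripts of the decay machinery itself stood when this stabiliser was reduced.

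Of the 42 rows, 15 fell and 3 rose in IGF2BP3 KD cells at an adjusted p under 0.05 in edgeR's quasi-likelihood test, and 24 were not called. Among all tested genes 10.6% were lower and 9.87% higher. A change is easier to detect in well expressed genes. Among the 10374 genes with at least the mean level of the lowest member the shares were 18.7% and 16.3%, against 35.7% and 7.14% of the member rows. In control cells that member, DCP1B, was at 7.13 CPM and the next lowest, CNOT4, at 25.6. This floor lies well under the other members, and the shares were not matched to their own levels. The median log2 fold change of the rows was -0.09, beside 0.01 over all tested genes and -0.01 over those 10374. All 3 IGF2BP3 KD libraries lay under all 3 control libraries for 20 rows and above them for 5, where 17.8% and 18.0% of all genes did so. No share restricted by level was taken for this count. Most of these shifts were small: 12 of the 18 called members changed by less than 0.25 on the log2 scale, and only DCP2, DCP1A, PARN, PABPC4 and SYNCRIP among the lower ones and CNOT6 among the higher ones changed by more. In bulk RNA, fewer cells that express a gene and less of its RNA per cell cannot be told apart. DESeq2 called the same 18 members and also placed SMG5, KHSRP and YBX1 among the lower ones, where it called 16.6% of its 14581 genes lower and 14.2% higher.

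**Figure D1:**
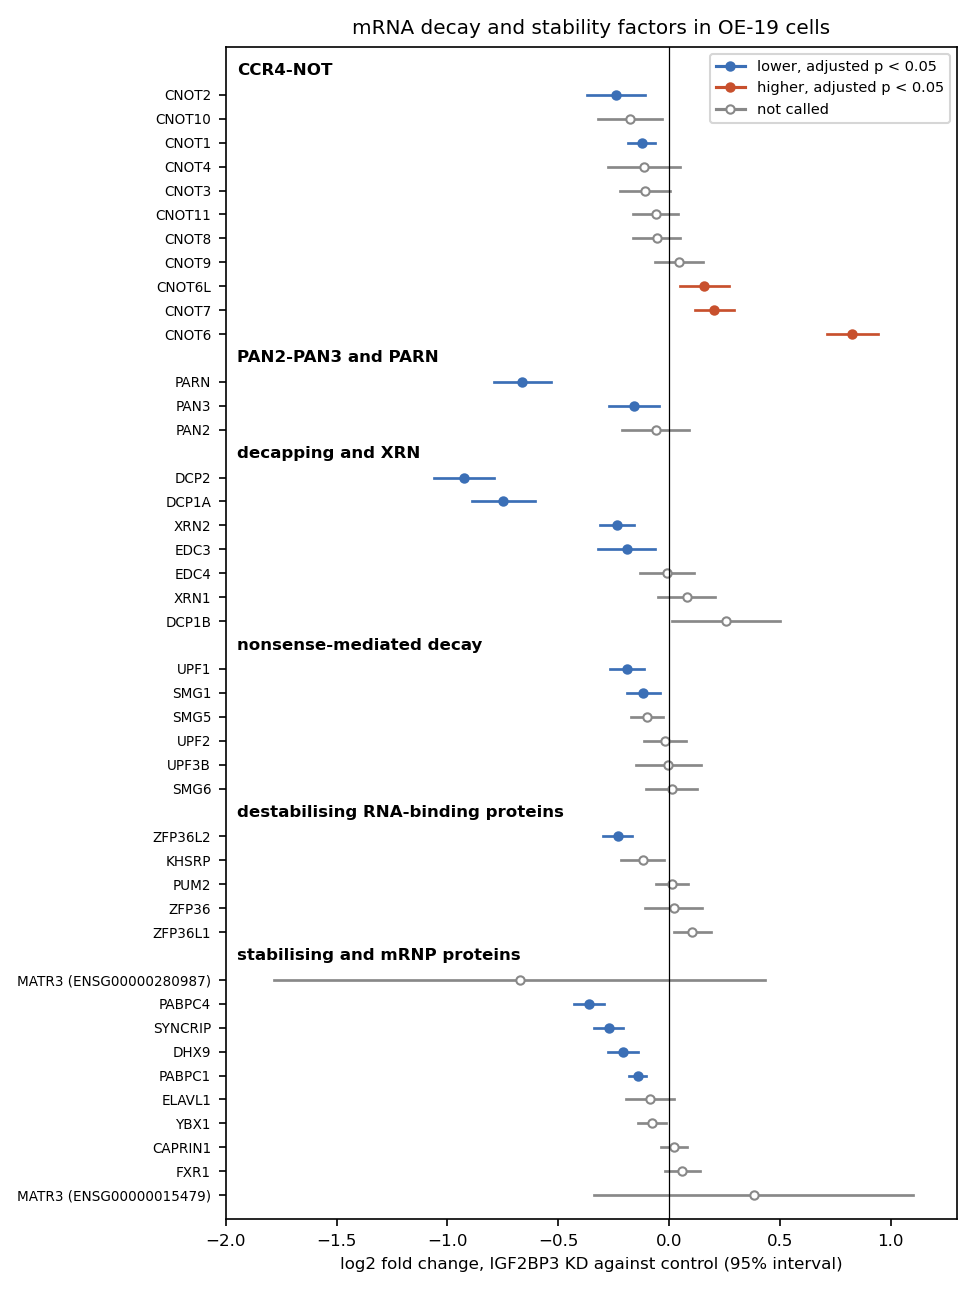
Log2 fold change of each member in IGF2BP3 KD against control cells (x axis) with its 95% interval, by group (y axis, 1 row per gene and 2 for MATR3). Filled points passed an adjusted p under 0.05: 15 lie left of 0 and 3 right of it, all 3 in the CCR4-NOT group, and the widest intervals are those of the 2 MATR3 rows.

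Decapping held the largest fall. DCP2 (ENSG00000172795, chromosome 5, 112976702 to 113022195, plus strand, hg38) is the enzyme that cuts the cap. It had 4740, 4378 and 3906 counts in the control libraries and 2030, 2070 and 2131 in the IGF2BP3 KD libraries. Every IGF2BP3 KD library held fewer counts than any control library. Its level was 66.2 ± 3.2 CPM (SD, n = 3) in control and 34.9 ± 2.34 in IGF2BP3 KD cells, a log2 fold change of -0.92 (SE 0.06, adjusted p = 2.1e-06) or 47.3% less. Leaving out each library in turn kept this value between -0.98 and -0.89.

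DCP1A, the scaffold that binds and activates DCP2, fell beside it, while its paralog DCP1B was not called. DCP1A (ENSG00000272886, chromosome 3, 53283429 to 53347586, minus strand) had 2405, 2607 and 2044 counts in control and 1125, 1413 and 1287 in IGF2BP3 KD libraries. This was a change from 35.8 ± 1.4 to 21.3 ± 1.2 CPM, with a log2 fold change of -0.75 (SE 0.06, adjusted p = 1.5e-05). DCP1B (ENSG00000151065) is the less abundant of the pair, with 458, 497 and 444 counts against 473, 497 and 556. Its log2 fold change was 0.26 (95% interval 0.01 to 0.50, adjusted p = 0.136), and its scaled levels did not overlap between the groups, at 7.13 ± 0.447 and 8.53 ± 0.455 CPM. Per length of the MANE Select transcript, DCP1A made up 63.3% of the sum of both in control cells and 46.2% in IGF2BP3 KD cells. The order of the pair thus turned per length only, since DCP1A kept the higher CPM in both groups. Whether these cells use the MANE Select transcripts was not tested.

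Among the activators of decapping, EDC3, which helps assemble the complex, had 3033, 3286 and 2789 counts in control and 2273, 2592 and 2399 in IGF2BP3 KD libraries. The log2 fold change was -0.19 (SE 0.06, adjusted p = 0.0412). This call is weak, since 5 of the 6 fits that left out 1 library lost it. EDC4, the large scaffold of the complex, stood at -0.01 (95% interval -0.13 to 0.11).

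XRN1 and XRN2 degrade RNA from the 5′ end. XRN2, the nuclear enzyme, had 12461, 11890 and 10097 counts in control and 7902, 9234 and 9522 in IGF2BP3 KD libraries, with a log2 fold change of -0.23 (SE 0.03, adjusted p = 6.2e-04). XRN1, its cytoplasmic relative, had 4254, 3949 and 3168 against 3333, 3895 and 3684 counts and a log2 fold change of 0.08 (95% interval -0.05 to 0.21). The groups overlapped for XRN1 after scaling and did not for XRN2.

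**Figure D2:**
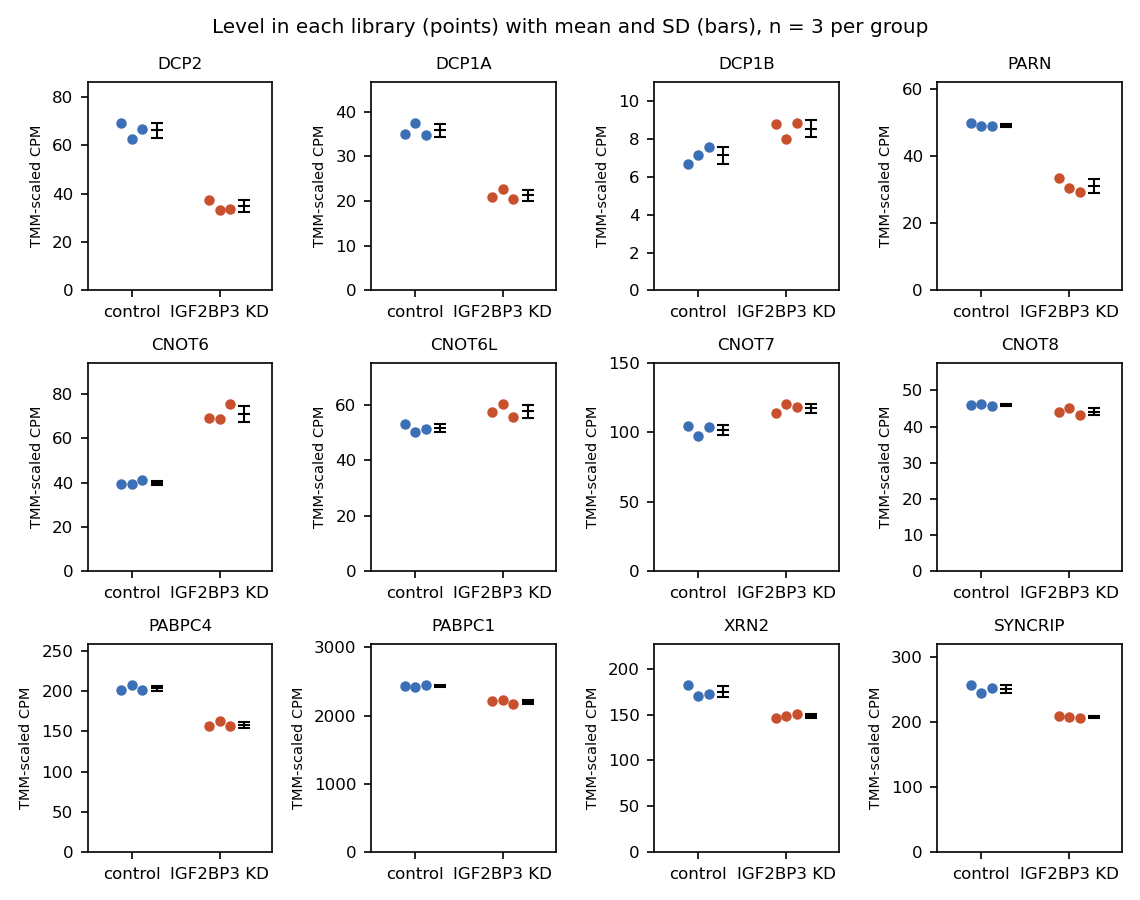
TMM-scaled CPM of 12 members in each library (y axes start at 0), with points for the 3 control and 3 IGF2BP3 KD libraries and bars for the mean and SD. DCP2, DCP1A and PARN lie clearly lower in IGF2BP3 KD libraries and CNOT6 higher, while PABPC1, PABPC4, XRN2 and SYNCRIP moved by smaller amounts without overlap.

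Of the 11 subunits of the CCR4-NOT complex, 3 (27.3%) were called higher and 2 (18.2%) lower. Among genes at or over the level of the lowest member the shares were 16.3% and 18.7%. CNOT6 (ENSG00000113300, chromosome 5, 180494379 to 180578358, plus strand), a deadenylase of the CCR4 kind, had 2710, 2744 and 2404 counts in control and 3720, 4267 and 4748 in IGF2BP3 KD libraries. Every IGF2BP3 KD library held more of its counts than any control library, although the 2 largest libraries were controls. Its level was 40.0 ± 0.908 CPM in control and 71.0 ± 3.75 in IGF2BP3 KD cells, with a log2 fold change of 0.83 (SE 0.05, adjusted p = 1.5e-06) or 77.5% more. It was the largest rise among the members.

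CNOT6L, the paralog that takes the same place in the complex, had 3646, 3503 and 3010 counts against 3092, 3737 and 3499. Its log2 fold change of 0.16 (SE 0.05, adjusted p = 0.0462) was near the threshold and was lost in 5 of the 6 fits without 1 library. CNOT7, a deadenylase of the CAF1 kind, had 7162, 6802 and 6075 against 6155, 7473 and 7453 counts, or 102 ± 3.78 and 118 ± 3.22 CPM. It was higher by 0.21 (SE 0.04, adjusted p = 0.00376) on the log2 scale, called in all 6 of those fits. CNOT8, its paralog, had 3148, 3219 and 2676 against 2379, 2808 and 2731 counts, with a log2 fold change of -0.06 (95% interval -0.16 to 0.05). Thus 3 of the 4 catalytic subunits were called higher, CNOT6L weakly, and none lower. Among genes at or over the level of the lowest member, 16.3% were higher and 18.7% lower. Whether the catalytic subunits differ as a kind from the other subunits was not tested.

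Of the 7 other subunits, 2 were called lower and none higher. Of genes at or over the level of the lowest member, 18.7% and 16.3% were. CNOT1, the scaffold on which the complex is built, had 22573, 23199 and 19755 counts in control and 16150, 19028 and 19693 in IGF2BP3 KD libraries, with a log2 fold change of -0.12 (SE 0.03, adjusted p = 0.00755). CNOT2, a subunit of the NOT module, had 3898, 4279 and 3382 against 2472, 3231 and 3242 counts and a log2 fold change of -0.24 (SE 0.06, adjusted p = 0.0156). The CNOT2 call was lost without the first IGF2BP3 KD library, at -0.19, and without the second control library, at -0.21. CNOT10 was at -0.18 (95% interval -0.32 to -0.03, adjusted p = 0.0893) without overlap of the groups. CNOT3, CNOT4, CNOT9 and CNOT11 lay between -0.11 and 0.05, and all 4 intervals covered 0.

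The deadenylases outside CCR4-NOT were led by PARN (ENSG00000140694, chromosome 16, 14435700 to 14632728, minus strand), a poly(A)-specific ribonuclease that also trims small nucleolar and telomerase RNAs. It had 3416, 3416 and 2874 counts in control and 1805, 1903 and 1860 in IGF2BP3 KD libraries. Its level was 49.3 ± 0.475 CPM in control and 31.2 ± 2.02 in IGF2BP3 KD cells. PARN thus changed by -0.66 on the log2 scale (SE 0.06, adjusted p = 1.7e-05), or 36.8% less. No gene of GENCODE v44 shares exon bases with PARN, so overlapping transcripts of that annotation do not enter this value. PAN3, the subunit that recruits PAN2 to the tail, had 5228, 4761 and 4248 against 3467, 4163 and 3981 counts and a log2 fold change of -0.16 (SE 0.05, adjusted p = 0.0486), lost in 5 of the 6 fits without 1 library. PAN2, the catalytic subunit, stood at -0.06 (95% interval -0.21 to 0.09).

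Nonsense-mediated decay removes mRNAs with premature stop codons. UPF1, its central helicase, had 14758, 16186 and 13505 counts in control and 10830, 12044 and 12651 in IGF2BP3 KD libraries, with a log2 fold change of -0.19 (SE 0.04, adjusted p = 0.00284). SMG1, the kinase of UPF1, had 14710, 14495 and 12281 against 10326, 11784 and 12766 counts and a log2 fold change of -0.12 (SE 0.03, adjusted p = 0.0303). The SMG1 value is uncertain, since near-identical SMG1 pseudogenes lie on the same chromosome and its call was kept in only 1 of the 6 fits without 1 library. SMG5 was at -0.10 (adjusted p = 0.0559), and the adaptors UPF2 and UPF3B and the endonuclease SMG6 lay between -0.02 and 0.01.

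Of the proteins that bind 3′ UTRs and destabilise mRNA, ZFP36L2, a zinc finger protein of AU-rich elements, had 15413, 15396 and 12780 counts in control and 10124, 11962 and 11712 in IGF2BP3 KD libraries. Its log2 fold change was -0.23 (SE 0.03, adjusted p = 2.3e-04). Its relatives were not called: ZFP36L1, with 7788, 8330 and 6871 against 6510, 8016 and 8039 counts, was at 0.11 (95% interval 0.02 to 0.19, adjusted p = 0.0787). ZFP36, with 3382, 3464 and 3060 against 2669, 3432 and 3082 counts, was at 0.02. KHSRP, another protein of AU-rich elements, was at -0.12 (adjusted p = 0.0806) and PUM2, a Pumilio protein, at 0.01.

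Of the 10 rows of proteins that coat and protect mRNA, 4 were lower and none higher. Of genes at or over the level of the lowest member, 18.7% and 16.3% were. PABPC4, a cytoplasmic poly(A)-binding protein, had 13847, 14452 and 11788 counts in control and 8445, 10114 and 9871 in IGF2BP3 KD libraries, and its log2 fold change was -0.36 (SE 0.03, adjusted p = 1.5e-05). PABPC1, the main poly(A)-binding protein and a known partner of IGF2BP proteins, had 166568, 168928 and 143275 against 119406, 138608 and 137236 counts. It moved less, by -0.14 (SE 0.02, adjusted p = 1.9e-04), and its CPM of 2433 ± 10.8 and 2206 ± 28 did not overlap. Both calls held in all 6 fits without 1 library. PABPC4 shares 1118 exon bases in all with genes on the opposite strand. The gene it shares most with is its antisense transcript PABPC4-AS1, which had at most 83 counts in a library.

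SYNCRIP and DHX9 are RNA-binding proteins found in the same particles as IGF2BP proteins. SYNCRIP had 17558, 16985 and 14798 counts in control and 11304, 12854 and 13037 in IGF2BP3 KD libraries, with a log2 fold change of -0.27 (SE 0.03, adjusted p = 6.6e-05). It shares 2832 exon bases in all with genes on the same strand, and more with ENSG00000271793 than with any other gene. The counts of ENSG00000271793 were 77, 115 and 73 against 222, 565 and 0. With the counts of both summed, the log2 fold change was -0.25 (SE 0.03, adjusted p = 1.9e-04). DHX9, an RNA helicase, had 23190, 22132 and 19790 against 15369, 17932 and 18135 counts and a log2 fold change of -0.21 (SE 0.03, adjusted p = 6.2e-04). The partner ELAVL1, which binds AU-rich elements and stabilises mRNA, was at -0.08 (95% interval -0.19 to 0.02), YBX1 at -0.08 (adjusted p = 0.0917), and CAPRIN1 and FXR1 at 0.02 and 0.06. PABPC1, YBX1 and DHX9 have processed pseudogenes of like sequence, so a part of their reads may be counted elsewhere.

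MATR3, a nuclear RNA-binding protein and partner of IGF2BP proteins, has 2 rows that cannot be read separately. Its rows ENSG00000280987 and ENSG00000015479, on the plus strand of chromosome 5, each share more exon bases with the other than with any further gene. In all they share 5767 and 5141 exon bases with genes on their strand. ENSG00000280987 took 76.5%, 18.7% and 23.2% of the counts of both in the control libraries and 12.6%, 20.9% and 39.7% in the IGF2BP3 KD libraries. The split therefore differed more within a group than between the groups, and the separate log2 fold changes of -0.67 (SE 0.50) and 0.38 (SE 0.33) had opposite signs and were not called. The summed counts were steady, with 22798, 22099 and 18487 in control and 18079, 20588 and 20812 in IGF2BP3 KD libraries. The sum had a log2 fold change of 0.05 (95% interval -0.02 to 0.11, adjusted p = 0.319). Summing was chosen after the rows had been seen.

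**Figure D3:**
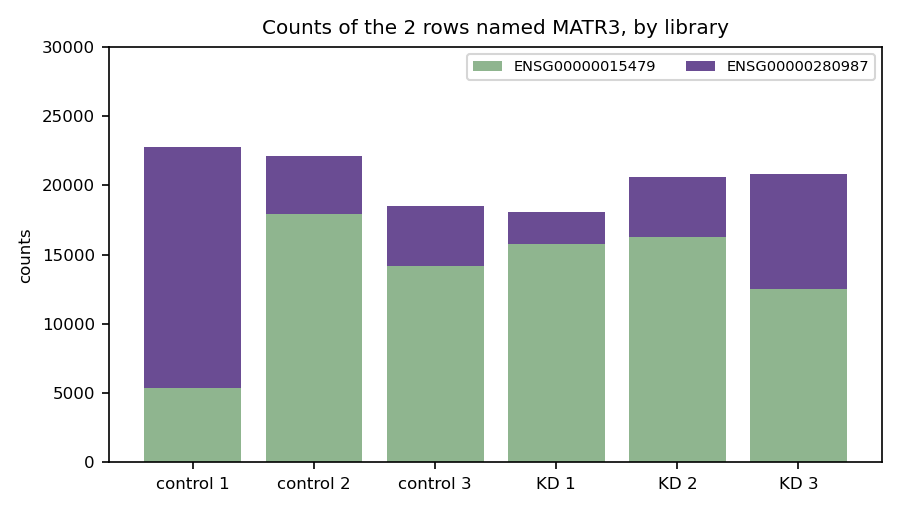
Counts of the MATR3 rows in each library (stacked bars from 0, 1 color per row). The total stays between 18079 and 22798 counts, while the share of ENSG00000280987 runs from 12.6% in the first IGF2BP3 KD library to 76.5% in the first control library.

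To compare related genes directly, the log2 ratio of 8 paralog pairs was taken within each library and set against the other group. The ratio of CNOT6 to CNOT6L was -0.42, -0.35 and -0.32 in the control libraries and 0.27, 0.19 and 0.44 in the IGF2BP3 KD libraries. CNOT6 thus passed from the lower to the higher count of the pair, and per length it made up 52.2% of the sum in control and 63.4% in IGF2BP3 KD cells. The ratio of DCP1A to DCP1B went from 2.25 ± 0.10 to 1.27 ± 0.16, a difference of -0.98. Smaller differences without overlap were 0.34 for ZFP36L1 to ZFP36L2, 0.32 for XRN1 to XRN2, 0.26 for CNOT7 to CNOT8 and 0.22 for PABPC1 to PABPC4. For all 6 of these pairs the exact two-sided permutation test gave p = 0.1, the smallest that 3 against 3 libraries allow, and 0.133 after adjustment over 8 pairs. ZFP36 to ZFP36L1 differed by -0.09 (exact permutation p = 0.2) and UPF3A to UPF3B by -0.02 (exact permutation p = 0.8), both with overlap. Such a test cannot reach 0.05 in this design.

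Levels per length, taken as CPM per kilobase of the MANE Select transcript (RPKM), ranged widely over the members. PABPC1 was the most abundant in control cells at 850 ± 3.78 RPKM, ahead of YBX1 at 140 ± 2.68 and SYNCRIP at 91.1 ± 2.34. The MANE Select transcript of SYNCRIP has 2754 bases, while the longest 3′ UTR of its coding transcripts alone has 5103. Its rank may thus depend on the transcript used. The enzymes were spread over the range, from XRN1 at 5.71 ± 0.406, CNOT6 at 6.43 ± 0.146 and DCP2 at 6.55 ± 0.317 through CNOT7 at 14.8 ± 0.548, PARN at 16.1 ± 0.155 and CNOT8 at 18.8 ± 0.106 to XRN2 at 51.3 ± 1.78 RPKM. The cofactor DCP1B was the lowest member, at 3.51 ± 0.220 RPKM. DCP2 and CNOT6 differed by less than the spread between libraries in control cells. In IGF2BP3 KD cells DCP2 and DCP1A stood at 3.45 ± 0.231 and 3.60 ± 0.210, under DCP1B at 4.19 ± 0.224, and CNOT6 at 11.4 ± 0.604 RPKM.

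**Figure D4:**
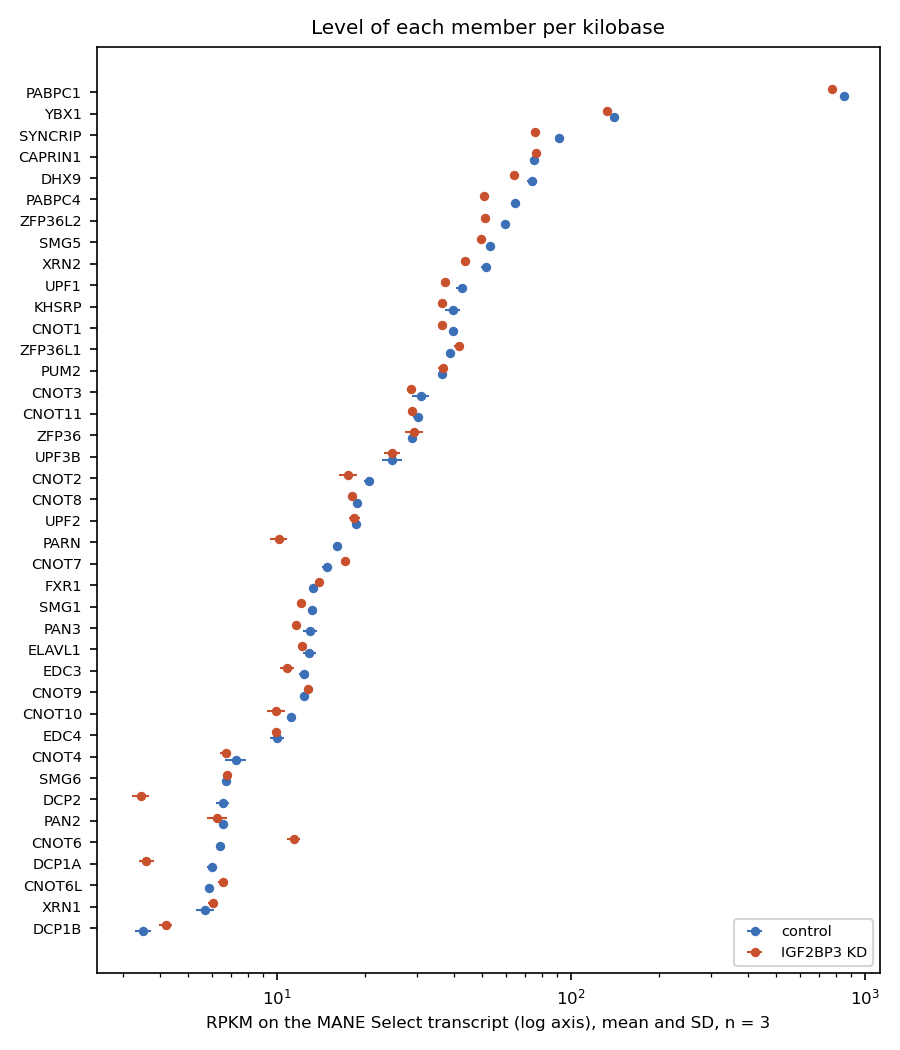
RPKM on the MANE Select transcript (x axis, log scale) of the members other than MATR3, ordered by the control level, with the mean and SD of 3 libraries per group. PABPC1 lies apart at the top, and CNOT6, DCP2, DCP1A and PARN are the members whose groups are farthest apart.

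Next, words were looked up in the 3′ UTR, a region in which decay factors and IGF2BP3 bind mRNA. The longest 3′ UTR among the protein-coding transcripts of each gene in GENCODE v44 was read on the transcript strand, in DNA letters, for 13797 tested coding genes. The words GATTACT and ACACATC were taken up from an earlier look at the same libraries. It had found genes with the former lower and genes with the latter higher, so the association of the words with the fold change is no independent result. Whether IGF2BP3 or a decay factor binds either word was not tested. GATTACT was held by 8.27% of these genes, of which 34.4% were lower and 6.92% higher, and their median log2 fold change was -0.13. ACACATC was held by 10.4%, of which 11.2% were lower and 26.8% higher, with a median of 0.09.

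The members that fell and rose most, DCP2 and CNOT6, each hold 1 of these words. Since the words came from the same libraries, this match is no independent result either. Their 3′ UTRs have 8711 and 4158 bases, and the match was not adjusted for length. DCP2 holds GATTACT at 2 positions of its 3′ UTR, FXR1 and PABPC1 at 1 each, and CNOT6, CNOT7, UPF2, CNOT2, CNOT3 and SYNCRIP hold ACACATC. The sites of DCP2, FXR1, CNOT6 and UPF2, which lie in the 3′ UTR of the MANE Select transcript, are shown to let the contexts be compared. The word is in capitals, with 11 bases on either side. Those of PABPC1 and CNOT7 also lie in that 3′ UTR and are not printed. The DCP2 sites lie at chr5:113017274-113017302 and chr5:113020673-113020701 (plus strand), at bases 3801 and 7200 of a 3′ UTR of 8711 bases. The FXR1 site lies at chr3:180982439-180982467 (plus strand), the CNOT6 site at chr5:180576051-180576079 (plus strand) and the UPF2 site at chr10:11921196-11921224 (minus strand), all in hg38.
DCP2 site 1: ttgtaactttaGATTACTaaacaaaacaa
DCP2 site 2: aatgtttgcagGATTACTgtacttccaaa
FXR1: aaaataaaactGATTACTatgcaagaaaa
CNOT6: gctgacaccaaACACATCcagtttataat
UPF2: gagagcagtggACACATCtcagcaggtcg

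Members that hold the same word did not all get the same call. With GATTACT, DCP2 and PABPC1 were lower at -0.92 and -0.14, and FXR1 was at 0.06 and not called. The FXR1 site is in 1 of 9 coding transcripts with a 3′ UTR, while the DCP2 sites are in 2 of 3 and the PABPC1 site in 16 of 21. Read over all coding transcripts, 4 members hold GATTACT rather than 3, with SYNCRIP added. With ACACATC, CNOT6 and CNOT7 were higher at 0.83 and 0.21, CNOT2 and SYNCRIP were lower at -0.24 and -0.27, and CNOT3 and UPF2 were not called. The sites of CNOT6 and of UPF2 are each in all 3 coding transcripts of the gene, those of CNOT7 in 1 of 4 and in the MANE Select 3′ UTR, and those of CNOT2, CNOT3 and SYNCRIP outside it. DCP1A and PARN, the next largest falls, hold neither word. Of the 32 members with neither word, among them MATR3 with its 2 rows, 11 rows were lower and 1 higher. Of the 11452 coding genes with neither word, 13.1% were lower and 12.1% higher. Those shares were not restricted to genes at or over the level of the lowest member, where changes are easier to detect.

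**Figure D5:**
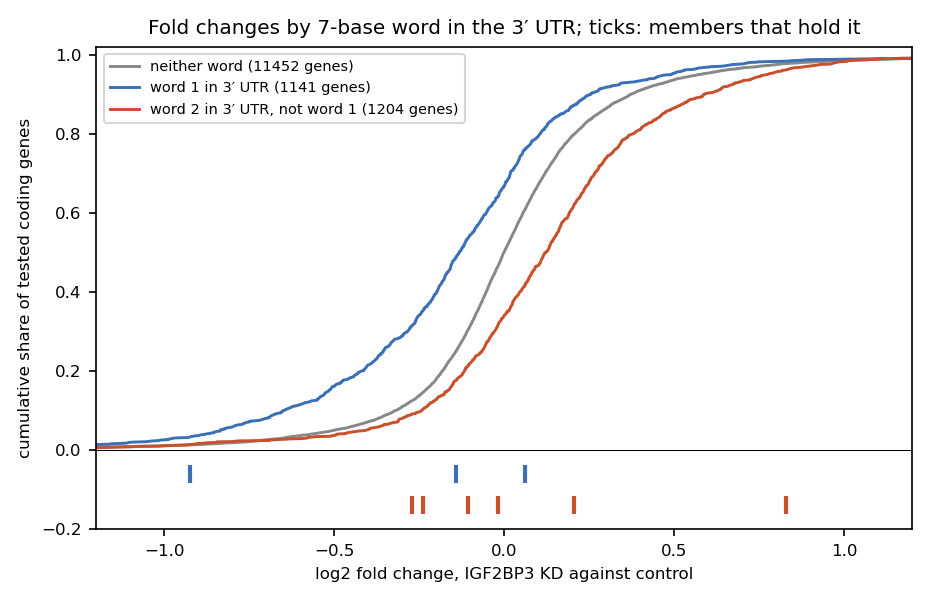
Cumulative share of tested coding genes (y axis) by log2 fold change (x axis), for genes whose 3′ UTR holds word 1 (GATTACT), word 2 (ACACATC) without word 1, or neither. Ticks under 0 mark the members that hold each word: those of word 1 run from -0.92 to 0.06 and those of word 2 from -0.27 to 0.83.

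Elements that the decay factors themselves bind were read the same way. TATTTAT, the core of AU-rich elements bound by ZFP36 proteins and ELAVL1, was found in the 3′ UTR of 20 members (48.8%), where 35.3% of the tested coding genes hold it. It was present 6 times in DCP2, 5 times in ELAVL1 and 3 times each in ZFP36, ZFP36L1, ZFP36L2 and XRN1. TGTANATA, the Pumilio element, was found in 14 members (34.1%) against 29.1% of the genes, and PUM2 itself held it 2 times. Long 3′ UTRs hold any word more often, and the shares were not adjusted for length. A match describes the letters only.

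The wider pathway was read from 89 further genes of the exosome, the recruiters of deadenylases, the LSM proteins and other binding proteins. This list too was made with earlier results of these data known. Of the 89 genes, 31 (34.8%) were lower, 6 (6.74%) higher and 52 not called. The shares were 10.6% and 9.87% of all tested genes, and 18.7% and 16.3% of those at or over the level of the lowest member. The median log2 fold change of the list was -0.11. The exosome and SKI list had 7 lower and 1 higher of 18, and the list of further stabilising and stress granule proteins 10 lower and 1 higher of 21. Lists of decapping activators with LSM proteins and of deadenylase recruiters each had 3 lower and 2 higher, of 17 and of 14. The lower shares of these lists, 17.6% and 21.4%, were near the 18.7% of genes at or over the level of the lowest member.

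PNRC2, which links UPF1 to decapping, had the smallest p among the lower genes, with 213 ± 11.7 CPM in control and 137 ± 5.56 in IGF2BP3 KD cells and a log2 fold change of -0.64 (SE 0.04). G3BP1, a core protein of stress granules, went from 229 ± 3.86 to 175 ± 1.31 CPM, or -0.39 (SE 0.03) on the log2 scale. LARP4, a protein that protects poly(A) tails, went from 63.6 ± 3.15 to 40.3 ± 0.654 CPM, or -0.66 (SE 0.05). The higher genes were led by FMR1, an RNA-binding regulator of translation, at 0.38 (SE 0.05, adjusted p = 3.3e-04), LSM1, a subunit of the ring that activates decapping, at 0.43 (SE 0.08, adjusted p = 0.00312), and TOB2, an adaptor of CCR4-NOT, at 0.15 (SE 0.03, adjusted p = 0.00991). Without the first IGF2BP3 KD library or the second control library, 3 genes of this wider list were called higher rather than 6.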

How the data were processed

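Libraries of polyA RNA were prepared with the NEBNext Ultra Directional kit. The authors trimmed reads with fastp, aligned them to hg38 with HISAT2 and deposited featureCounts counts per gene, without normalization. Versions, annotation release and strand setting are not given in the sources used here, so genes that overlap another gene on either strand are uncertain. Columns were assigned by name, 132 repeated entries of 44 identifiers were left out, and no column was left unused.

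Counts were tested with edgeR 4.0.16 (R 4.3.3): TMM scaling, filterByExpr (minimum count 10, minimum total 15) and the quasi-likelihood functions glmQLFit and glmQLFTest on group alone. The p-values of all 19778 genes were adjusted together by the Benjamini-Hochberg method, and 0.05 was the threshold. CPM values are TMM-scaled, and errors are SDs over 3 libraries. Log2 ratios of paralogs used CPM + 0.5 and an exact permutation test. The square root of the common dispersion was 0.148, and chi-square per degree of freedom was 9.89 to 17.4 within groups and 47.0 to 57.8 between them, so no library repeats another. On simulated data of this comparison, with 50 genes of each size among 19204 and a mean of at least 5 CPM, 32% of changes of 0.25, 86% of 0.5, 96% of 0.75 and 100% of 1 on the log2 scale were recovered, with 11 false calls.

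The members and lists were chosen with earlier results of these data known. Counts in every library are given for each called member and for the paralog of a called member, and of the wider list the 3 called genes of smallest p in each direction are named. Positions, MANE Select lengths and 3′ UTRs come from GENCODE v44. Alternatives were DESeq2 1.42.0, other scalings and filters, a GC correction, a replicate block, leaving out each library, a threshold of 0.01, any coding transcript for the words and, added after the data were seen, the summed rows of MATR3 and of SYNCRIP with its overlapping gene. Tables and plots were made in Python 3.11.15 with pandas 2.3.3, numpy 2.4.6, matplotlib 3.10.9 and scipy 1.17.1.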

Additional observations from a re-analysis of the deposited data

How the results depend on the processing

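Of the 18 called members, 13 were called in the same direction under every alternative. The other 5 were CNOT2, CNOT6L, EDC3, PAN3 and SMG1, all with an adjusted p over 0.01. DESeq2, a GC correction and a minimum of 10 counts in every library kept all 18, RLE scaling 17, the GC correction with the replicate block 17, upper quartile scaling 16, total counts 15 and no filter 14. Leaving out 1 library kept 13 to 16. The replicate numbers do not pair the libraries: the deviations of same-numbered libraries correlated by -0.03 to 0.01. A fit with the replicate block kept 15 of the 18, without CNOT6L, PAN3 and EDC3, and called ZFP36L1. The wider list had 3 rather than 6 higher genes without the first IGF2BP3 KD or the second control library, and 3 at an adjusted p under 0.01. The difference in the UPF3A to UPF3B ratio, -0.02, turned sign in 3 of the 6 calculations without 1 library, which ran from -0.099 to 0.04. The cause was not tested. In the simulated data, where genes had a mean of at least 5 CPM, changes of 0.25 on the log2 scale were often missed. Recovery was not measured at the members' own levels, where 12 of the 18 calls were smaller than 0.25. A member that was not called may still differ, and how far is read from its interval. The interval ran from -0.13 to 0.11 for EDC4 and from -0.06 to 0.09 for PUM2, but from -0.32 to -0.03 for CNOT10.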

Other observations

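EXOSC4, an exosome subunit of the wider list, is listed at 0 counts in the first IGF2BP3 KD library, against 883 and 708 in the other IGF2BP3 KD libraries and 931, 1077 and 859 in the control libraries. Its log2 fold change of -0.77 (SE 0.79, adjusted p = 0.579, edgeR) rests on that library: without it the value was -0.20 and again not called. Like the rows of MATR3 it shares exon bases on the same strand with other genes of GENCODE v44, 855 in all.

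The word ATTACTA, whose first 6 letters are the last 6 of GATTACT, was counted after the data were seen. It was found in the 3′ UTR of 8 members, DCP1A and DCP2 among them, where 10.7% of the tested coding genes hold it. Of these 8 genes, 4 were lower and 1 was higher, and of all tested coding genes with the word 24.3% were lower and 9.65% higher.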
